A study of Mus musculus with 12 samples.

Results

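The interleukin 1 family and inflammasome genes followed here are Il1a, Il1b, Il1rn, Il18, Il18bp, Nlrp3, Pycard, Casp1, Casp4 and Gsdmd. They were taken by symbol from a deposited expression table, in which all 10 were present among 14541 listed genes, and all 10 passed the filter on low values. The cells were microglia, the resident macrophages of the brain, from the forebrains of wild-type mouse pups of postnatal days 7 to 9, enriched with magnetic beads against CD11b and plated at 40000 to 80000 per well. A first group of 4 libraries came from wells given 500 nM recombinant Hevin, a protein that astrocytes secrete. A second group of 4 came from wells given LPS (lipopolysaccharide) at 50 ng/mL, a component of the bacterial outer membrane sensed by Toll-like receptor 4. The third group of 4, called Media, received additional growth medium. All wells were collected 6 h after the addition. CD11b is shared by microglia, neutrophils and other myeloid cells, so the beads select a class of cells and not microglia alone. No label states that the 4 libraries of a group are from different pups or plates, and p-values measure the spread between these libraries, which may be technical. Each group carries the replicate numbers 1 to 4. Libraries of the same number deviated together from their group means, and the numbers are treated here as pairing the libraries. Number 4 did not stand apart from number 3 in these deviations.

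Interleukin 1α and interleukin 1β are cytokines that act through the same receptor, and the interleukin 1 receptor antagonist encoded by Il1rn occupies that receptor without signalling. Interleukin 1β and interleukin 18 are made as inactive precursors. In an inflammasome, a sensor such as NLRP3 assembles through the adaptor ASC, the product of Pycard, with pro-caspase-1, and active caspase-1 then cuts both precursors and gasdermin D. Cut gasdermin D forms pores in the cell membrane. Caspase-11, encoded by Casp4 in the mouse, binds LPS in the cytosol and also cuts gasdermin D. In macrophages the Nlrp3 and Il1b transcripts are known to be induced through NF-kB. The present measurements are of RNA and do not show cutting or release of any of these proteins.

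The libraries numbered 2 stood apart in all 3 groups. The summed level of 10 neutrophil genes listed in the table (the defining gene Ly6g was not listed) was 1972 FPKM in Hevin 2, 2120 FPKM in LPS 2 and 2124 FPKM in Media 2, against 42.5 to 106 FPKM in the other 9 libraries. FPKM gives the reads of a gene per length and per library size. Without S100a8 and S100a9 the sums were 574 FPKM in Hevin 2, 662 FPKM in LPS 2 and 659.9 FPKM in Media 2, against 10.8 to 21.0 FPKM elsewhere. A list of 6 monocyte genes summed to 91.1 to 119 FPKM in the libraries numbered 2, against 3.68 to 10.3 FPKM in the others. Results are therefore also given without these 3 libraries, a choice made after seeing the data.

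All 12 microglia markers were detected, with summed levels of 1470.2 to 2082 FPKM in Hevin, 757 to 1085 FPKM in LPS and 867 to 1143 FPKM in Media. Of these 12 markers 6 were higher and 0 lower in Hevin than in Media, and 0 were higher and 2 lower in LPS than in Media. With the replicate number as a block, 10 were higher and 0 lower in Hevin than in Media, and 1 was higher and 4 lower in LPS than in Media. Over all genes tested by limma, 7.37% were called in Hevin against Media (21.4% with the block) and 25.8% in LPS against Media (43.7%). Tmem119 was low throughout, at means of 2.52 FPKM in Hevin, 1.12 FPKM in LPS and 1.39 FPKM in Media. The 6 markers of border macrophages were also present, at sums of 612 to 814 FPKM in Hevin, 684 to 852 FPKM in LPS and 808 to 939 FPKM in Media. Of these 6 markers 2 were higher and 1 lower in Hevin than in Media, or 2 and 2 with the block. The lower gene without the block was Mrc1, the mannose receptor gene, which averaged 71.7 FPKM in Hevin, 178 FPKM in LPS and 161 FPKM in Media, with a log2 fold change of -1.16 ± 0.13 in Hevin against Media (limma adjusted p = 2.05e-04). The higher genes were Ms4a7, at 39.1 FPKM in Hevin and 20.5 FPKM in Media (0.91 ± 0.12, limma adjusted p = 6.50e-04), and F13a1, at 56.3 FPKM in Hevin and 44.7 FPKM in Media (0.33 ± 0.091, limma adjusted p = 0.0457). The 8 astrocyte genes summed to 21.9 to 47.5 FPKM in Hevin, 114 to 236 FPKM in LPS and 51.0 to 88.1 FPKM in Media, mostly from Gja1, with means of 25.3 FPKM in Hevin, 174 FPKM in LPS and 60.7 FPKM in Media, while Aqp4 and Aldh1l1 did not pass the filter on low values. The oligodendrocyte lineage list, with 6 of 7 genes listed, had sums that did not overlap between the groups, at 24.0 to 38.1 FPKM in Hevin, 7.48 to 9.32 FPKM in LPS and 11.9 to 14.6 FPKM in Media. In this list Cspg4, the gene of the NG2 proteoglycan, averaged 20.1 FPKM in Hevin, 0.981 FPKM in LPS and 2.72 FPKM in Media (log2 fold change 2.48 ± 0.29 in Hevin against Media, limma adjusted p = 2.60e-04), while Mog was not listed and Sox10 did not pass the filter. Endothelial sums varied by library, at 30.8 to 153 FPKM in Hevin, 27.3 to 162 FPKM in LPS and 27.4 to 145 FPKM in Media. The part of these differences in cell markers in the results below was not tested. In bulk RNA, fewer cells of a type and less RNA per cell cannot be told apart. Depth in the listed genes, recovered from the FPKM steps, was 21389784 to 27361665 reads in Hevin, 19395973 to 27263115 reads in LPS and 18343996 to 25910349 reads in Media.

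Il1b, Nlrp3 and Casp4 were the members that passed the test described below in all 3 comparisons, and the 300 bases around their start sites (250 before and 50 after, from RefSeq on GRCm38.p6, in the direction of transcription) are shown for that reason. Capitals mark matches to a general NF-kB motif, GGG and CC with 5 bases of any kind between them, on either strand. The Il1b window is chr2:129371090-129371389 on the minus strand, the Nlrp3 window chr11:59541319-59541618 on the plus strand and the Casp4 window chr9:5308599-5308898 on the plus strand.
Il1b: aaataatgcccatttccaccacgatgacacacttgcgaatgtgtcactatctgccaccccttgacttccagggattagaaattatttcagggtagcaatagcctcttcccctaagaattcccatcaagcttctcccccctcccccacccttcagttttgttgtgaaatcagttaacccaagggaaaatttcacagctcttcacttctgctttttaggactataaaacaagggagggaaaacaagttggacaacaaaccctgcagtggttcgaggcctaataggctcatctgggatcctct
Nlrp3: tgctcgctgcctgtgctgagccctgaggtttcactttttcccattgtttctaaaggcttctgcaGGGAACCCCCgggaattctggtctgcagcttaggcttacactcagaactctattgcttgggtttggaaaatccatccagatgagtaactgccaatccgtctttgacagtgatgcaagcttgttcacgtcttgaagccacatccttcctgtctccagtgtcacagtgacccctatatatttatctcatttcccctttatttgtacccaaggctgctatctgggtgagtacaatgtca
Casp4: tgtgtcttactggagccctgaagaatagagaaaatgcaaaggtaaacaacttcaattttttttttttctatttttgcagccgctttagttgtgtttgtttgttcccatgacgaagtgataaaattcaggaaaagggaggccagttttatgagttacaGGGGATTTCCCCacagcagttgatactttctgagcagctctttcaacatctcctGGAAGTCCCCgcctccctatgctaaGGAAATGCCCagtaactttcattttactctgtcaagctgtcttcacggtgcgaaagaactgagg
The Casp4 window held a run of 3 overlapping matches, in GGGGATTTCCCC, that starts 93 bases before the start site, and 2 further matches that start 39 and 14 bases before it. The Nlrp3 window held 1 match, which starts 186 bases before the start site. The windows shown are those nearest to the annotated gene starts. A further Nlrp3 window, chr11:59542436-59542735, held a match that starts 8 bases before its own start site. A further Casp4 window overlaps the one shown and holds the same matches. The Il1b window held no match. A match is a description of the letters only, and 50.8% of all 32851 RefSeq windows of this length held one. RefSeq windows, 13 in all, were found for 9 of the 10 members, and windows of Il1rn and Casp1 also held NF-kB matches. The motif TGANTCA, a general AP-1 motif present in 7.81% of windows, occurred near the start sites of Il1a, 12 to 6 bases before it, and Il1rn, 141 to 135 bases before it. The interferon response motif, GAAA given 2 times with 2 bases of any kind between, was present in 3.44% of windows and in no member window.

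Hevin against Media asked what the astrocyte protein did to cultured microglia, and the members called lower without the block were Il1b, Nlrp3 and Casp4. Their mean levels in Hevin were 0.325, 0.540 and 0.462 times those in Media. Il1a, Il1rn and Casp1 were also lower in all 4 numbers, and passed with the block (limma adjusted p = 0.0398, 4.39e-04 and 1.84e-03) but not without it. No member was called higher, though Pycard was higher in all 4 numbers. At an adjusted p under 0.05 in limma's test, with Benjamini-Hochberg adjustment over 11242 genes, 3 of the 10 members were lower and 0 higher, where 3.1% of all genes were lower, 4.27% higher and 7.37% called in either direction. The median log2 fold change of the 10 members was -0.65, and that of all genes tested was 0.00020. At an unadjusted p under 0.05 in limma 5 members were lower and 0 higher. The share of all genes at that looser threshold is not given here, so this count cannot be set against the shares above. Limma-voom on recovered reads called 3 members lower and 0 higher, where 353 of all genes were lower and 512 higher. With the replicate number as a block, 6 members were lower and 0 higher, where 10.6% of all genes were lower, 10.8% higher and 21.4% called in either direction. Without the libraries numbered 2, 4 members were lower, where 250 of 11009 genes were lower, 334 higher and 5.3% called in either direction. With the block as well, 5 members were lower, where 964 genes were lower, 977 higher and 17.6% called in either direction.

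LPS served as the inflammatory stimulus, and Il1a, Il1b, Il1rn, Il18bp, Nlrp3, Casp1 and Casp4 were called higher than Media without the block. Mean levels were 17.8 times those in Media for Il1a, 13.6 times for Il1b, 5.52 times for Nlrp3, 5.19 times for Il1rn and 4.18 times for Casp4. In limma's test 7 of 10 members were higher and 0 lower, where 13.2% of all genes were higher, 12.6% lower and 25.8% called in either direction. The median log2 fold change was 1.61 over the members and -0.024 over all genes tested. With the block 9 members were higher, where 21.5% of all genes were higher and 43.7% were called in either direction. Without the libraries numbered 2, 8 members were higher, where 1411 of 11009 genes were higher, 1156 lower and 23.3% called in either direction. With the block as well, 9 members were higher, where 2245 genes were higher, 2306 lower and 41.3% called in either direction.

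In Hevin against LPS, 8 of 10 members were lower and 0 higher, where 19.7% of all genes were lower, 22.0% higher and 41.7% called in either direction. The median log2 fold change was -2.39 over the members and 0.016 over all genes tested. With the block 9 members were lower, where 28.0% of all genes were lower and 57.9% called in either direction. Without the libraries numbered 2, 8 members were lower, where 2074 of 11009 genes were lower, 2118 higher and 38.1% called in either direction. With the block as well, 9 members were lower, where 2953 genes were lower, 3152 higher and 55.5% called in either direction. Each treated group enters 2 comparisons and the same 4 Media libraries serve both treatments, so the 3 comparisons are not independent of one another.

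**Figure D1:**
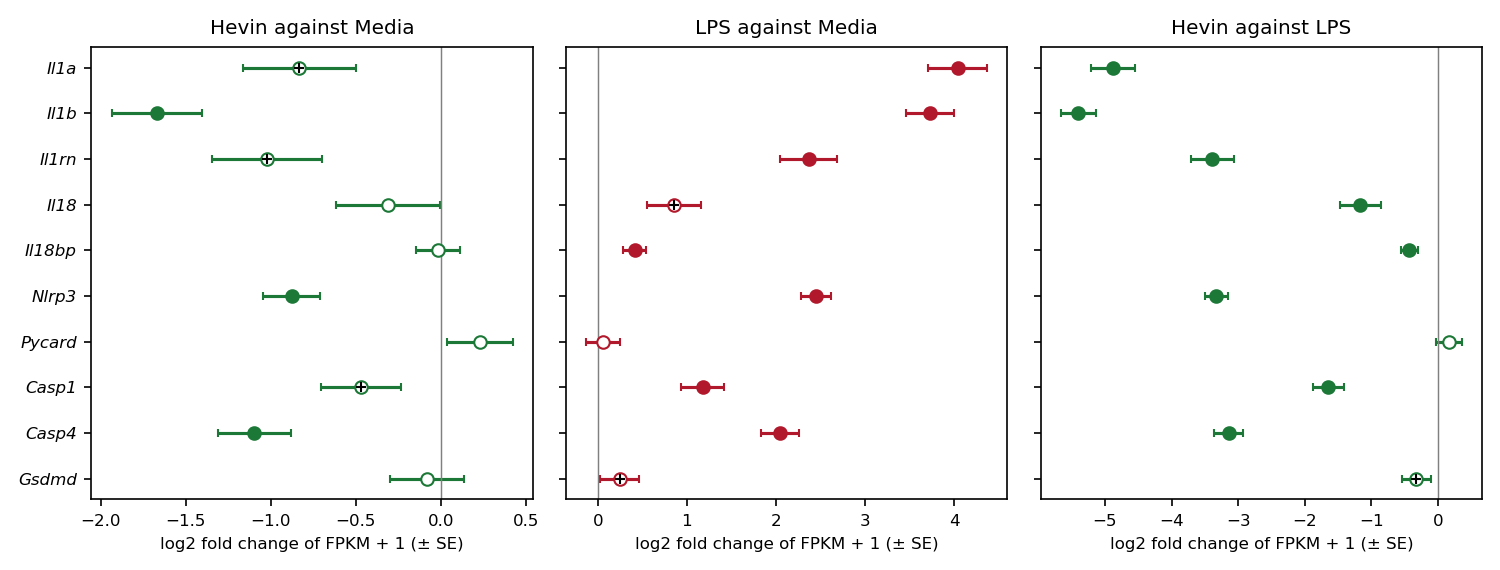
Log2 fold change (± SE, limma on log2(FPKM + 1), 4 libraries a group) of each member in Hevin against Media, LPS against Media and Hevin against LPS; horizontal scales differ between panels. Filled points passed an adjusted p of 0.05 without the replicate block, open points did not, and a plus sign marks those that passed only with the block. In Hevin against Media only Il1b, Nlrp3 and Casp4 are filled, while Il1a, Il1rn and Casp1 carry a plus sign.

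Il1b, the gene of interleukin 1β, lies at chr2:129364570-129371139 on the minus strand (GRCm38, GENCODE M21). It stood at 57.5, 82.4, 36.6 and 37.0 FPKM in Hevin libraries 1 to 4, at 1392, 2575, 2622 and 2334 FPKM in LPS, and at 188, 183, 154 and 132 FPKM in Media. The highest Hevin library lay below the lowest Media library, and every LPS library lay far above both groups. Against Media the log2 fold change was -1.67 ± 0.27 in Hevin (limma adjusted p = 2.29e-03) and 3.73 ± 0.27 in LPS (limma adjusted p = 1.47e-06). Hevin against LPS gave -5.40 ± 0.27 (limma adjusted p = 3.70e-08). The Hevin library with the highest Il1b, number 2, is also the one with the high neutrophil markers. Without number 2 the Hevin log2 fold change against Media was -1.85 ± 0.26 (limma adjusted p = 4.73e-03) and the LPS log2 fold change was 3.70 ± 0.26 (limma adjusted p = 2.75e-05).

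Il1a encodes interleukin 1α, which is active without cutting by caspase-1, and lies near Il1b on the same strand at chr2:129299610-129309972. It stood at 26.7, 27.8, 17.3 and 17.2 FPKM in Hevin, at 316, 972, 908 and 706 FPKM in LPS, and at 29.8, 56.4, 44.3 and 32.4 FPKM in Media. Hevin and Media did not overlap, though Hevin 2 and Media 1 were close, and LPS lay above both. In LPS the log2 fold change against Media was 4.04 ± 0.33 (limma adjusted p = 4.50e-06). In Hevin it was -0.83 ± 0.33, which did not pass without the block (limma adjusted p = 0.170) and passed with it (0.0398). Without number 2 the Hevin difference of -0.78 did not pass with or without the block (limma adjusted p = 0.126 and 0.292). It passed without the block when LPS 1, which had the lowest Il1a of the LPS libraries, was left out (limma adjusted p = 0.0438), and its limma adjusted p ran from 0.0398 to 0.373 over all alternatives. Hevin against LPS gave -4.88 ± 0.33 (limma adjusted p = 4.41e-07).

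Il1rn, the antagonist gene at chr2:24336853-24351494 on the plus strand, had 128, 114, 242 and 167 FPKM in Hevin, 1314, 1095, 2036 and 2481 FPKM in LPS, and 204, 282, 482 and 366 FPKM in Media. In each number the Hevin library had less than its Media partner, but the groups overlapped because Hevin 3 exceeded Media 1. LPS lay above both. The Hevin log2 fold change against Media was -1.02 ± 0.32, with a limma adjusted p of 0.0820 without the block and 4.39e-04 with it. Without number 2 the limma adjusted p was 0.199, and with the block as well it was 2.81e-03. Leaving out Media 1 alone made it pass without the block (limma adjusted p = 0.0458). In LPS the log2 fold change against Media was 2.37 ± 0.32 (limma adjusted p = 2.54e-04), and Hevin against LPS gave -3.39 ± 0.32 (limma adjusted p = 7.47e-06).

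Per length, the antagonist transcript was the most abundant of the members in Hevin, at a mean of 163 ± 57.5 FPKM, and in Media, at 333 ± 119 FPKM (SD, n = 4 each). In LPS it was Il1b, at 2231 ± 573 FPKM, with Il1rn at 1732 ± 641 FPKM (SD, n = 4). The ratio of Il1b to Il1rn was 0.449, 0.725, 0.151 and 0.222 in Hevin, 1.06, 2.35, 1.29 and 0.941 in LPS, and 0.919, 0.648, 0.320 and 0.360 in Media. Each LPS library had a higher ratio than any Media library, by a narrow margin between LPS 4 and Media 1. Hevin had a lower ratio than its Media partner in 3 of 4 numbers, number 2 being the exception, and the groups overlapped. Levels and ratios per length rest on the lengths the authors divided by, which were 1327 bp for Il1b and 2691 bp for Il1rn, against GENCODE exon unions of 1907 and 5535 bp. With the exon unions every ratio of Il1b to Il1rn would be 1.43 times as high, at 0.217 to 1.04 in Hevin, 1.35 to 3.37 in LPS and 0.458 to 1.32 in Media. The highest mean among the members would still be that of Il1rn in Hevin and in Media, and that of Il1b in LPS. The length is the same in every library, so FPKM ratios between groups do not depend on it. The log2 fold changes of low genes do in part, through the 1 added to FPKM before the log and the filter on low values.

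The ratio of Il1b to Il1a was 2.15, 2.97, 2.12 and 2.15 in Hevin, 4.41, 2.65, 2.89 and 3.31 in LPS, and 6.29, 3.24, 3.48 and 4.06 in Media. It was lower in every Hevin library than in any Media library, and lower in LPS than in Media within each number although LPS and Media overlapped. Apart from number 2, the Hevin ratios lay within 2.12 to 2.15. With exon-union lengths these ratios would be 0.696 times as high. These ratios were described and not tested. Il1a shares 222 bp of exon, 11.2% of its exon length, with Gm14023 on the opposite strand, and Il1b shares 25 bp, 1.31%, with Il1bos. Whether the counting used strand is not given in the sources used here.

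**Figure D2:**
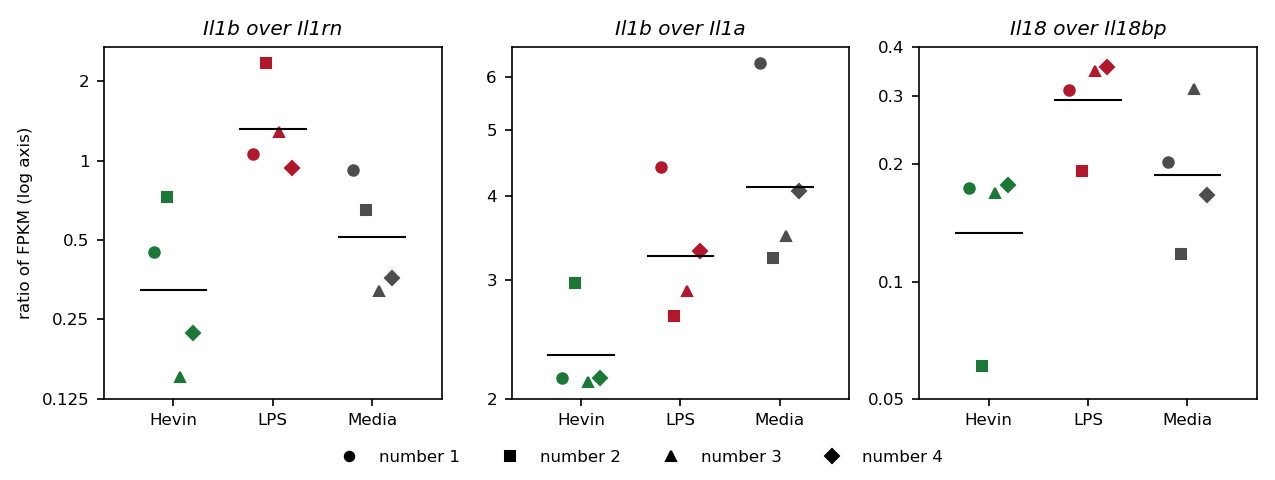
FPKM ratios of Il1b to Il1rn, of Il1b to Il1a and of Il18 to Il18bp in each library (log axes), with Hevin left, LPS in the middle and Media right; marker shape gives the replicate number and the line the geometric mean of 4 libraries. The Il1b to Il1a ratio is at most 2.97 in Hevin and at least 3.24 in Media, while LPS spans 2.65 to 4.41.

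Il18 (chr9:50554827-50581840, plus strand) encodes interleukin 18, a relative of interleukin 1β that prompts interferon-γ production in lymphocytes, and was scarce. It stood at 2.37, 0.704, 2.59 and 2.33 FPKM in Hevin, 5.69, 2.74, 6.51 and 8.24 FPKM in LPS, and 2.57, 1.73, 4.08 and 2.29 FPKM in Media, from 14 to 138 recovered reads per library. Hevin and LPS did not overlap, and number 2 was the lowest library of each group. Hevin was lower than LPS (log2 fold change -1.17 ± 0.31, limma adjusted p = 9.61e-03). LPS against Media gave 0.85 ± 0.31, which did not pass without the block (limma adjusted p = 0.0589), passed with it (1.03e-03) and passed without the libraries numbered 2 (4.67e-03). It also passed when Hevin 2, LPS 2 or Media 3 alone was left out (limma adjusted p = 0.0340, 0.0129 and 0.0410) and with a pseudocount of 5 (0.0392). Over all alternatives the limma adjusted p for LPS ran from 1.03e-03 to 0.159. Hevin against Media gave -0.31 ± 0.31 (limma adjusted p = 0.654).

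Il18bp encodes a secreted protein that binds and neutralises interleukin 18 (chr7:102014885-102018690, minus strand). Its levels were 11.6 to 15.3 FPKM in Hevin, 14.3 to 23.2 FPKM in LPS and 12.7 to 14.7 FPKM in Media, so all groups overlapped. Hevin and Media were close, with a log2 fold change of -0.016 ± 0.13 (limma adjusted p = 0.970) that changed sign under several alternatives. LPS was higher than Media by 0.41 ± 0.13 (limma adjusted p = 0.0337) and Hevin lower than LPS (-0.43 ± 0.13, limma adjusted p = 0.0184). The LPS call against Media ended without any one of LPS 1, LPS 3, LPS 4, Media 1, Media 3 or Media 4 (limma adjusted p from 0.0571 to 0.0904), and its limma adjusted p ran from 1.76e-03 to 0.735 over all alternatives. With FPKM totals set equal, the LPS log2 fold change was 0.059. Without number 2 the LPS fold change was 0.57 (limma adjusted p = 6.12e-03). The Hevin call against LPS ended without Hevin 2 (limma adjusted p = 0.0535) and without LPS 4 (0.0508).

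The ratio of Il18 to Il18bp was 0.174, 0.0606, 0.169 and 0.176 in Hevin, 0.310, 0.192, 0.347 and 0.356 in LPS, and 0.202, 0.117, 0.311 and 0.166 in Media. All Hevin ratios lay under all LPS ratios. Hevin and Media overlapped. In all 12 libraries the transcript of the binding protein exceeded that of the cytokine per length. Here the authors' lengths were 866 bp for Il18 and 1402 bp for Il18bp, against exon unions of 1031 and 3026 bp, and with the exon unions the ratios would be 1.81 times as high, at most 0.320 in Hevin, 0.645 in LPS and 0.565 in Media.

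**Figure D3:**
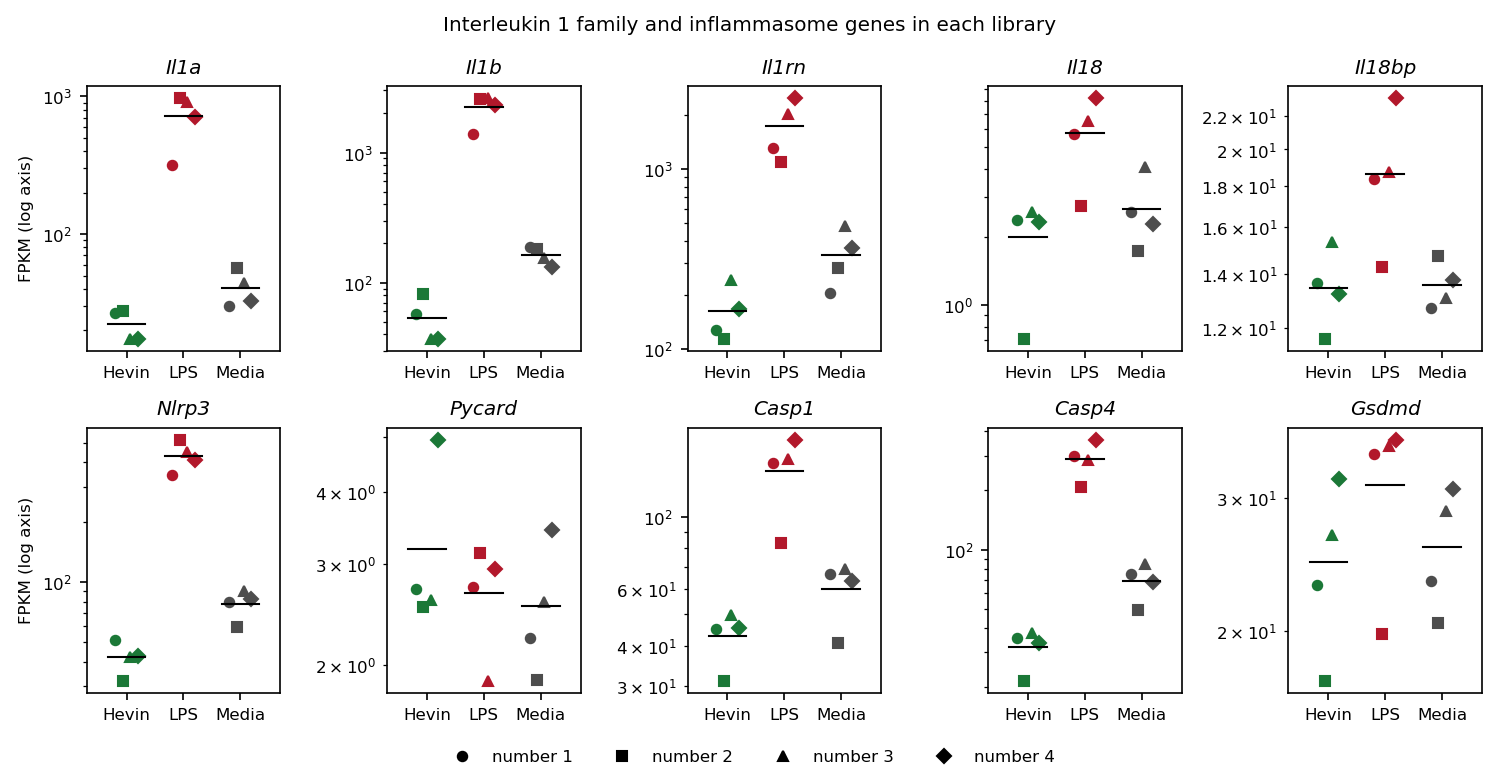
FPKM (log axis) of each of the 10 members in every library, in Hevin, LPS and Media from left to right; marker shape gives the replicate number and the line the mean of 4 libraries. Il1a, Il1b, Nlrp3 and Casp4 are lower in all Hevin libraries than in any Media library, and the squares of number 2 are lowest in all 3 groups for Il18, Casp1, Casp4 and Gsdmd.

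Nlrp3 encodes the inflammasome sensor and spans chr11:59541568-59566956 on the plus strand. It had 51.4, 31.8, 42.4 and 42.8 FPKM in Hevin, 344, 516, 452 and 412 FPKM in LPS, and 79.9, 59.4, 90.8 and 82.1 FPKM in Media. The 3 groups did not overlap one another. Hevin was lower than Media (log2 fold change -0.88 ± 0.17, limma adjusted p = 7.65e-03, lower in 4 of 4 numbers), and LPS was higher than Media (2.45 ± 0.17, limma adjusted p = 1.08e-06). Hevin against LPS gave -3.33 ± 0.17 (limma adjusted p = 4.77e-08). Leaving out number 2 left the Hevin difference at -0.88 (limma adjusted p = 4.55e-03), though LPS 2 had the highest Nlrp3 of all libraries while Hevin 2 and Media 2 had the lowest of their groups.

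Pycard, the adaptor gene at chr7:127989708-127993867 on the minus strand, was scarce in all groups. Its levels were 2.72, 2.53, 2.60 and 4.93 FPKM in Hevin, 2.74, 3.14, 1.88 and 2.95 FPKM in LPS, and 2.23, 1.89, 2.58 and 3.43 FPKM in Media, from 78 to 297 recovered reads. The groups overlapped, although each Hevin library was above its Media partner, by a ratio of 1.01 to 1.44. The Hevin log2 fold change against Media was 0.23 ± 0.19 (limma adjusted p = 0.584) and the LPS one 0.062 ± 0.19 (limma adjusted p = 0.856), whose sign turned under several alternatives. Hevin against LPS gave 0.17 ± 0.19 (limma adjusted p = 0.524). Exons of Gm45205, which the table does not list, overlap 485 bp of Pycard on the opposite strand.

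Casp4 encodes caspase-11 in the mouse and lies at chr9:5308828-5336783 on the plus strand, next to Casp1. Its levels were 35.5, 21.3, 37.7 and 33.4 FPKM in Hevin, 301, 208, 287 and 361 FPKM in LPS, and 74.9, 49.3, 84.6 and 68.3 FPKM in Media. The 3 groups did not overlap. The log2 fold change against Media was -1.10 ± 0.22 in Hevin (limma adjusted p = 8.44e-03) and 2.05 ± 0.22 in LPS (limma adjusted p = 3.39e-05). Hevin against LPS gave -3.14 ± 0.22 (limma adjusted p = 4.79e-07). Without number 2 the Hevin difference against Media was -1.07 ± 0.12 (limma adjusted p = 1.20e-03).

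Casp1 encodes the caspase that cuts the interleukin 1β and interleukin 18 precursors (chr9:5298517-5307265, plus strand). It stood at 45.1, 31.0, 49.7 and 45.2 FPKM in Hevin, 147, 83.2, 151 and 173 FPKM in LPS, and 66.4, 40.8, 69.0 and 63.5 FPKM in Media. Hevin and Media overlapped through Media 2, whereas LPS lay above both. The LPS log2 fold change against Media was 1.18 ± 0.24 (limma adjusted p = 3.53e-03) and Hevin against LPS gave -1.65 ± 0.24 (limma adjusted p = 1.90e-04). Hevin against Media gave -0.47 ± 0.24, which did not pass without the block (limma adjusted p = 0.295), passed with it (1.84e-03), and passed without the libraries numbered 2 (-0.50 ± 0.090, limma adjusted p = 0.0146).

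Gsdmd, the gene of the pore-forming gasdermin D (chr15:75862327-75867408, plus strand), ranged over 17.2 to 31.8 FPKM in Hevin, 19.8 to 35.8 FPKM in LPS and 20.5 to 30.8 FPKM in Media, and all groups overlapped. Hevin against Media gave a log2 fold change of -0.080 ± 0.22 (limma adjusted p = 0.901). LPS against Media gave 0.24 ± 0.22 (limma adjusted p = 0.461), or 0.0452 with the block, and 0.0136 with the block and without number 2. Hevin against LPS gave -0.32 ± 0.22 (limma adjusted p = 0.260), or 9.16e-03 with the block, and it passed without the block when LPS 2 was left out (0.0477). Library 4 had the highest Gsdmd of each group.

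The order of levels was LPS, Media, Hevin for Il1a, Il1b, Il1rn, Il18, Il18bp, Nlrp3, Casp1, Casp4 and Gsdmd, and Hevin, LPS, Media for Pycard. Without the block, the step between LPS and Media passed limma's test for all of the first 9 except Il18 and Gsdmd, which passed with it. The step between Media and Hevin passed for Il1b, Nlrp3 and Casp4, and with the block also for Il1a, Il1rn and Casp1. No step passed for Pycard.

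Within replicate numbers the caspase genes had the narrowest differences between Hevin and Media. The FPKM ratio of Hevin to Media ran from 0.432 to 0.489 for Casp4 and from 0.679 to 0.760 for Casp1. The SD of the 4 log2 differences was 0.076 for Casp4 and 0.067 for Casp1, against a median SD of 0.15 over all genes tested. For Il1b the ratio ran from 0.238 to 0.451 and for Il1a from 0.391 to 0.896, with SDs of 0.38 and 0.49. Of the 10 members, 6 were lower and 1 higher in Hevin than in Media in all 4 numbers, where 23.6% of all genes were lower and 23.4% higher. The groups did not overlap, with Hevin lower, for 4 members, where 7.55% of all genes did so. In LPS, 7 members were higher than Media in all 4 numbers, where 25.8% of all genes were, and 6 did not overlap, where 13.3% did not. In Hevin, 9 members were lower than LPS in all 4 numbers, where 30.5% of all genes were, and 7 did not overlap, where 17.5% did not.

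**Figure D4:**
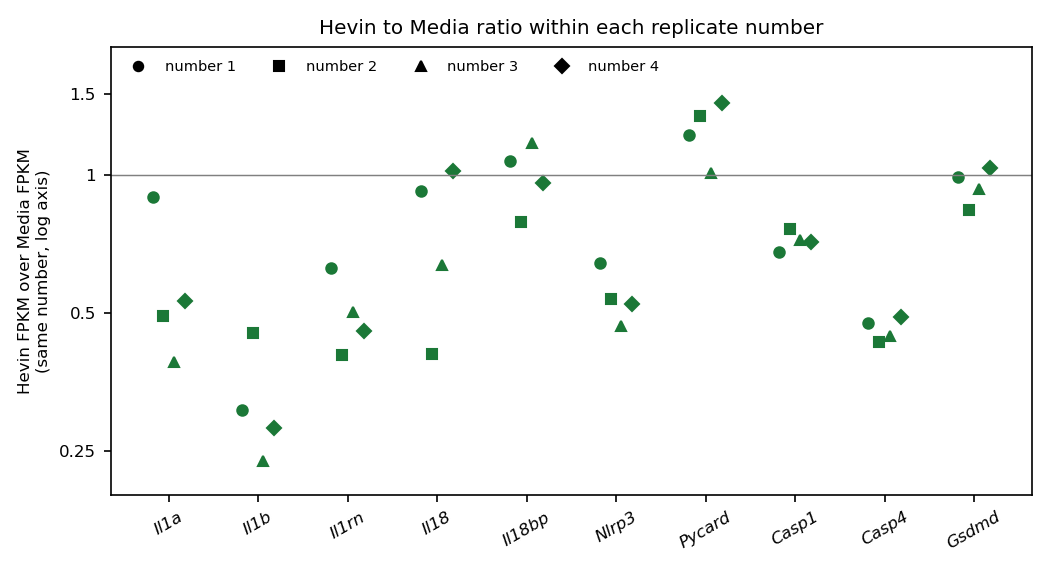
Ratio of Hevin FPKM to the Media FPKM of the same replicate number (log axis), for each member; marker shape gives the number and the grey line a ratio of 1. Casp4 sits at 0.432 to 0.489 and Casp1 at 0.679 to 0.760, while Il1a runs from 0.391 to 0.896.

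Some members followed the replicate number. Il18, Casp1, Casp4 and Gsdmd were lowest in number 2 in all 3 groups, that is 4 of 10 members, where 8.58% of the genes tested were. Il1a was highest in number 2 in all 3 groups and Gsdmd in number 4, where 8.47% and 2.21% of the genes tested were. The neutrophil marker sums given above are high in the same libraries, and their part in these levels was not tested.

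The other genes of the pathway were grouped in 5 lists, whose counts stand against 7.37% of all genes called in either direction in Hevin against Media (21.4% with the block) and 25.8% in LPS against Media (43.7% with the block). Of 8 receptor and decoy genes 5 were tested, and in Hevin against Media 1 was higher and 0 lower, or 1 and 1 with the block. The higher gene was Il1rl2, which encodes the interleukin 36 receptor, at 7.22 ± 1.33 FPKM in Hevin, 3.42 ± 0.874 FPKM in LPS and 3.92 ± 0.451 FPKM in Media (SD, n = 4 each; limma adjusted p = 0.0153 in Hevin against Media). In LPS against Media 0 passed in limma, 0 at an unadjusted p under 0.05 and 0 with voom, among them Il1r1, the gene of the signalling interleukin 1 receptor, at 1.41 ± 0.478 FPKM in Hevin, 1.70 ± 0.371 FPKM in LPS and 1.28 ± 0.204 FPKM in Media. Of 6 other ligands and antagonists 2 were tested, and both rose in LPS, while in Hevin against Media 0 passed in limma, at an unadjusted p under 0.05 or with voom, and 1 was lower with the block. Il1f9, an older symbol of the interleukin 36γ gene Il36g, had 6.49 ± 4.38 FPKM in Hevin, 49.9 ± 14.7 FPKM in LPS and 11.1 ± 4.89 FPKM in Media. Il33 had 0.516 ± 0.706 FPKM in Hevin, 6.02 ± 5.00 FPKM in LPS and 0.565 ± 0.664 FPKM in Media. It passed the filter on low values through its LPS libraries, at 1.40 to 11.5 FPKM. That Il33 was tested therefore already depended on its level in LPS, and the count of 2 rising is partly set by the filter. With voom on recovered reads Il33 did not pass in LPS against Media (limma-voom adjusted p = 0.0567). Without number 2 the counts of both lists, without the block, were the same.

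Of 13 signalling genes below the receptors, 1 was higher and 1 lower in Hevin than in Media, with or without the block, where 7.37% of all genes were called without it. In LPS against Media 7 were higher and 3 lower, or 9 and 3 with the block, where 25.8% of all genes were called, or 43.7% with the block. The gene higher in Hevin was Peli2, which encodes a ubiquitin ligase of the Pellino family, at 7.85 ± 0.905 FPKM in Hevin, 1.47 ± 0.355 FPKM in LPS and 2.68 ± 0.708 FPKM in Media, with a log2 fold change of 1.28 ± 0.15 in Hevin (limma adjusted p = 2.23e-04). The gene lower in Hevin was Tollip, which encodes an inhibitor of receptor signalling, at 46.5 ± 5.49 FPKM in Hevin and 64.2 ± 5.30 FPKM in Media (limma adjusted p = 0.0132). It falls outside the rule for named genes and was chosen after its values were seen. Peli1, a relative of Peli2, stood at 50.2 ± 7.17 FPKM in Hevin, 297 ± 44.4 FPKM in LPS and 47.3 ± 3.33 FPKM in Media (limma adjusted p = 6.06e-08 in LPS against Media). Irak3, which encodes a kinase relative that restrains this signalling, had 5.54 ± 0.914 FPKM in Hevin, 26.4 ± 6.37 FPKM in LPS and 6.27 ± 0.903 FPKM in Media. The adaptor gene Myd88 had 52.5 ± 8.17 FPKM in Hevin, 124 ± 19.1 FPKM in LPS and 59.5 ± 6.74 FPKM in Media. In Hevin against Media neither Peli1, Irak3 nor Myd88 passed (limma adjusted p = 0.819, 0.686 and 0.534).

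Of 24 other inflammasome sensors and partners 16 were tested, with 2 higher and 0 lower in Hevin than in Media, or 5 and 3 with the block, where 7.37% of all genes were called, or 21.4% with the block. In LPS against Media 6 were higher and 1 lower, or 7 and 3 with the block, where 25.8% of all genes were called, or 43.7% with the block. The 2 genes higher in Hevin without the block were Naip5 and Naip2, of which Naip2 was chosen after its values were seen. Both encode sensors of bacterial proteins. Naip5 stood at 7.75 ± 0.599 FPKM in Hevin, 3.57 ± 1.06 FPKM in LPS and 4.05 ± 0.247 FPKM in Media (limma adjusted p = 5.82e-03 in Hevin against Media). The Naip genes are close paralogs whose reads could be split between them, so their separate values are uncertain. Gbp5 and Gbp3, which encode interferon-induced guanylate binding proteins, stood at 5.12 ± 2.89 and 17.7 ± 11.4 FPKM in Hevin, 175 ± 62.1 and 110 ± 49.2 FPKM in LPS, and 5.36 ± 2.41 and 9.73 ± 5.69 FPKM in Media. Mefv, the gene of the sensor pyrin, had 0.832 ± 0.266 FPKM in Hevin, 3.82 ± 0.615 FPKM in LPS and 0.954 ± 0.544 FPKM in Media. Mefv too passed the filter on low values through its LPS libraries, at 3.11 to 4.59 FPKM. Without number 2, 15 of this list were tested and 5 were higher and 0 lower in LPS than in Media.

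Of 11 cell death executors and relatives 8 were tested. In Hevin against Media 0 were higher and 1 lower, or 1 and 1 with the block, and the lower gene was the necroptosis kinase gene Ripk3, at 32.0 ± 6.95 FPKM in Hevin, 54.8 ± 6.82 FPKM in LPS and 68.2 ± 15.0 FPKM in Media (log2 fold change -1.07 ± 0.18 in Hevin against Media, limma adjusted p = 3.48e-03, or 0.0399 without number 2). In LPS against Media 1 was higher and 0 lower, Ripk1, at 38.5 ± 1.91 FPKM in Hevin, 54.4 ± 4.96 FPKM in LPS and 40.7 ± 2.60 FPKM in Media, or 3 higher and 1 lower without number 2 and 4 higher and 3 lower with the block. Mlkl, the gene of the necroptosis pore protein, had 10.3 ± 4.54 FPKM in Hevin, 28.6 ± 11.0 FPKM in LPS and 12.8 ± 4.47 FPKM in Media and was lower in Hevin than in LPS (limma adjusted p = 0.0119).

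**Figure D5:**
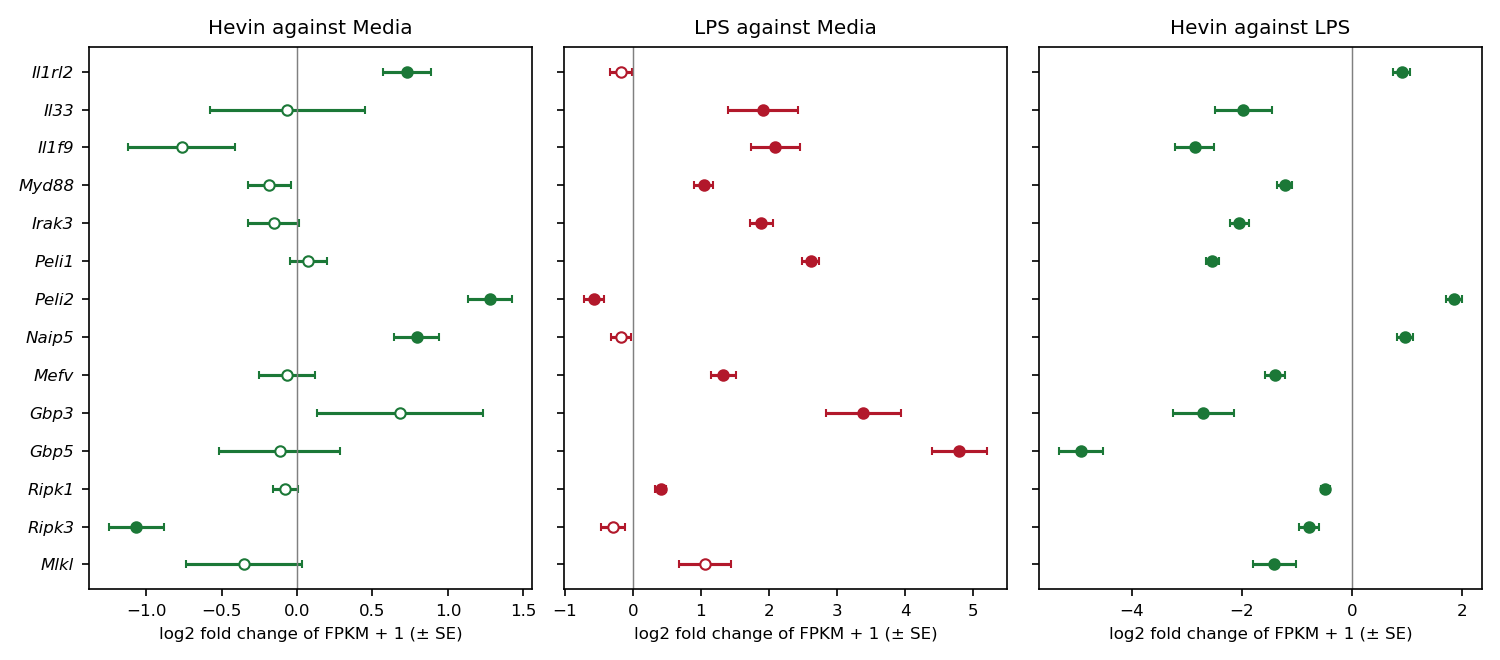
Log2 fold change (± SE, limma on log2(FPKM + 1), 4 libraries a group) of the 14 pathway genes named by rule from the 5 lists, in the same 3 comparisons; horizontal scales differ between panels. Filled points passed an adjusted p of 0.05 and open ones did not. In Hevin against Media the filled points are Il1rl2, Peli2 and Naip5 on the higher side and Ripk3 on the lower side.

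The genes whose profile over the 12 libraries was most like that of a member were found among 11240 others by the root mean square distance between profiles of log2(FPKM + 1), each centred on its own mean. For Il1b these were Mmp13 at a distance of 0.320, Il1a at 0.451, Cxcl2 at 0.487, Ccl4 at 0.501 and Il10 at 0.647. For Il1a they were Il10, Ifnb1 and Il1b, and for Il1rn they were Car13, Flrt3 and Marcksl1. Nlrp3 was closest to Marcksl1, at 0.219, then Traf1 and Icam1. Casp4 was closest to Ikbke, at 0.236, and Casp1 to Msr1, at 0.190. Mmp13, which encodes a collagenase, averaged 10.9 FPKM in Hevin, 516 FPKM in LPS and 34.3 FPKM in Media. These likenesses are descriptions and were not tested.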

How the data were processed

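Poly(A) RNA of the 12 libraries was sequenced as pairs of 100 bp reads from a stranded kit and 100 ng of RNA, per the labels' protocols. The authors deposited 1 table of FPKM values for 14541 genes by symbol. The build mm10 and the tools edgeR 3.30.3, R 4.0.0, Subread 1.6.3 with featureCounts, Bowtie2 2.3.5.1, Trimmomatic 0.39 and FastQC 0.11.7 appear without role or order, per the submitters' processing notes. Which annotation was used is not given in the sources used here. Sample titles gave each library its group and number.

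In 100% of the listed genes the FPKM steps gave whole reads, within 0.05 of a whole number, and a trimmed mean of M-values recomputed from these reads gave the deposited scaling within 0.00124%. These reads set the depth and served a voom alternative, which called 865 genes in Hevin against Media, 2835 in LPS against Media and 4648 in Hevin against LPS. Genes reaching 1 FPKM in 4 or more libraries (11242, of which 1 symbol had 2 entries) were modelled on log2(FPKM + 1) by limma 3.58.1 under R 4.3.3, which understates changes of low genes, with all 12 libraries in 1 model and a mean-variance trend. The test was checked on simulated data of independent libraries. That check held no effect shared by a replicate number, so it does not cover the pairing or the libraries numbered 2. P-values were adjusted by Benjamini-Hochberg at 0.05. The planned model has no block. The column names join same-numbered libraries under a further label, and their deviations from group means correlated in all 12 pairs of libraries (r = 0.230 to 0.784). Between libraries numbered 3 and 4 r was 0.435 to 0.528, against 0.230 to 0.512 within number 4, so these correlations do not set number 4 apart from number 3. Blocked values are given where they change a member's call or the count of a pathway or microglia list against Media. The members, gene lists and tests were chosen with earlier results of these data known. Named pathway genes were the 4 of each list with the smallest p among those called in any comparison. Some results are left out and not reported here. Positions come from GENCODE M21 on GRCm38 and promoter windows from RefSeq. Lengths implied by the FPKM steps were shorter than the GENCODE exon union for 7 members, most of all for Casp4 (1443 against 3710 bp), Il18bp (1402 against 3026 bp), Il1rn (2691 against 5535 bp) and Pycard (2135 against 3800 bp), and close to it for Il1a, Nlrp3 and Casp1 (ratios of implied to union length of 1.00, 0.991 and 1.01), so levels per length rest on the authors' own lengths. Alternatives were pseudocounts, filters, other scalings, the block, the 2 groups alone, voom, and leaving out each library or, added later, number 2.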

Additional observations from a re-analysis of the deposited data

Results flagged for a closer look

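In 39 sets of 4 libraries (30 of gene levels and 9 of ratios), 5 held a library far from the other 3, by Dixon's test at the 95% level. Chance marks about 1 in 20 such sets. Il18 in Hevin 2, at 0.704 FPKM, was the low one of the Hevin libraries, and the ratio of Il18 to Il18bp in the same library, 0.0606, was low with it. The ratio of Il1b to Il1a in Hevin 2, 2.97, was high among the Hevin libraries. Gsdmd in LPS 2, at 19.8 FPKM, was low among the LPS libraries. Pycard in Hevin 4, at 4.93 FPKM, was high among the Hevin libraries. Of the 5 values, 4 belong to libraries numbered 2, which carry the neutrophil marker sums of 1972 to 2124 FPKM, and the part of these cells in the values was not tested.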

How the results depend on the processing

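Il1b, Nlrp3 and Casp4 in Hevin against Media, and Il1a, Il1b, Il1rn, Nlrp3, Casp1 and Casp4 in the other 2 comparisons, kept their direction and their side of the threshold under every alternative run. With the replicate block the genes called were 2406 in Hevin against Media (829 without it) and 4914 in LPS against Media (2897 without it), and members called in Hevin against Media were 6 against 3. With the block and without number 2 these were 1941 genes, 4551 genes and 5 members. Leaving out 1 library gave 512 (without Media 3; 527 without Hevin 4) to 935 genes and 3 to 4 members in Hevin against Media, 2161 to 2820 genes and 6 to 8 members in LPS against Media, and 3843 to 4698 genes and 7 to 9 members in Hevin against LPS. With FPKM totals set equal the calls were 683 higher and 310 lower in Hevin against Media (480 and 349 as reported), 670 and 5590 in LPS against Media, 6260 in all (1484 and 1413), and 5978 and 849 in Hevin against LPS (2470 and 2215). That scaling shifted the median log2 fold change of all genes by 0.044, -0.31 and 0.36 in the same order, and upper quartile scaling by 0.0095, -0.096 and 0.11. The Il18bp sign in Hevin against Media turned with equal totals (0.032), without number 2 with or without the block (0.085), and without Hevin 2 or Media 2, its log2 fold change running from -0.077 to 0.047 with 1 library left out. That of Gsdmd turned without Hevin 2 or Media 4, from -0.21 to 0.076. In LPS against Media Pycard turned with upper quartile scaling (-0.026), equal totals (-0.21), without number 2 with or without the block (-0.091) and without Media 2 (from -0.029 to 0.18 with 1 library left out), and Gsdmd with equal totals (-0.12). In Hevin against LPS Pycard turned without Hevin 4 (from -0.011 to 0.24), and Gsdmd with equal totals (0.090). The Il18bp calls also ended with upper quartile scaling (limma adjusted p = 0.135 in LPS against Media and 0.103 in Hevin against LPS), with equal totals (0.735 and 0.881) and, in LPS against Media, with only those groups in the model (0.0613). The mean log2 ratio of Il18 to Il18bp moved with a pseudocount of 5 to -1.40 in Hevin, -1.15 in LPS and -1.28 in Media, from -2.32, -1.59 and -2.03 with a pseudocount of 1, and to -2.83 in Hevin with 0.1. Il18 has no value when 1 FPKM is required in all 12 libraries. The block changed no member's call other than those given in the report. The cause of these shifts was not tested. Depth limits Il18 and Pycard most, with 14 to 138 and 78 to 297 reads per library.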
